A study of Homo sapiens with 6 samples.

Results

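Ribosome biogenesis was examined through 42 genes that make, modify, cut and assemble ribosomal RNA, from RNA polymerase I transcription to maturation of the subunits. The members were chosen by function, with earlier results of these data known, and matched by gene symbol. All 42 were found among the 61806 genes of the deposited table. RNA came from MDA-MB-231, an established human triple-negative breast cancer cell line, in 3 control samples and in 3 samples treated with 20 μM Parishin B (PB) for 24 h. PB is a compound of the Gastrodia orchid that was studied as an inhibitor of the pseudokinase TRIB3 and of its binding to the kinase AKT1, and the sequencing asked which genes changed under it. Whether the control cells received a vehicle was not given in the sources used here. The samples are 1 cell line, and nothing says that they came from separate cultures. The p-values thus rest on the spread between these samples, pooled over genes, and that spread may be technical.

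A ribosome is built in the nucleolus. RNA polymerase I copies the ribosomal DNA into a long precursor, small nucleolar ribonucleoproteins (snoRNPs) guide methylation and pseudouridylation of that precursor, and large assemblies of processing factors fold and cut it into the RNAs of the small and the large subunit. The pathway is a main consumer of energy in dividing cells, and many of its genes are known targets of the transcription factor MYC, which binds the E-box CACGTG together with MAX.

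Total counts lay between 15681655 and 21986948 per sample, and no member had fewer than 115 counts in any sample. The lowest correlation between samples of the same group was 0.994 and the highest between groups was 0.947. All 6 genes listed as markers of MDA-MB-231 were detected, with a summed level of 1145 to 1170 FPKM (fragments per kilobase of exon, scaled to library size) in the control group and 1085 to 1088 FPKM in the PB group. All 6 passed as lower with TMM, their median being -0.42 on the log2 scale and CAV1 at -1.16, while VIM, the most abundant, was at -0.059 and turned to 0.075 with library size alone, where 4 passed as lower and 1 as higher. The groups also differed in further lists of markers. The summed level of 8 epithelial markers was 396 to 403 FPKM in the control group and 159 to 165 FPKM in the PB group, with CDH1 and ELF3 under 0.1 FPKM in every PB sample and GRHL2 under it in every sample. Of the 7 epithelial markers tested 5 passed as lower. On the log2 scale these were ELF3 at -9.17, CDH1 at -8.26, KRT8 at -1.60, KRT18 at -1.38 and EPCAM at -1.21. The highest of the list averaged 285.5 FPKM in the control group, so a single gene made up most of the sum. ESRP1 rose by 1.63 and CLDN4 did not pass (0.15, adjusted p = 0.429). The summed level of 4 leucocyte markers was 0.54 to 0.97 FPKM in the control group and 0.15 to 0.18 FPKM in the PB group, with PTPRC and CD3E under 0.1 FPKM in every sample and CD14 in every PB sample. Luminal markers summed to 4.40 to 4.57 FPKM in the control group and 4.83 to 4.96 FPKM in the PB group. Fibroblast markers summed to 0.22 to 0.28 FPKM and to 0.25 to 0.34 FPKM. A further 113 genes, 0 of them members, were counted 30 times or more in each control library but no more than 3 times in any library given PB, against 1 gene with the opposite pattern. The part of these genes and markers in the values of the ribosome biogenesis genes was not tested. Whether both groups came from the same cell stock was not tested either, and a difference between stocks and a difference between treatments cannot be told apart in these 6 samples.

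The start sites of the members are shown first because many of them carry the E-box. RefSeq promoters (GRCh38.p14, 250 bases before to 50 after the gene start) were found for 36 of the 42 members. NOP58, NOLC1, RRP12, BOP1, RRS1 and RRP1B had no entry. The motif CACGTG, which reads the same on both strands, was present in 14 of the 36 (38.9%), against 9.67% of the promoters of 12541 tested genes and 7.43% of all 27305 promoters. It was the only motif searched. By step, it was present in 8 of 12 promoters of small-subunit genes, in 3 of 10 of large-subunit genes, in 2 of 6 of snoRNP genes, in 1 of 4 of the multifunctional nucleolar proteins and in 0 of 4 of the RNA polymerase I genes. In 13 of the 14 members with the motif its first copy began within 50 bases of the start site, from 16 bases before to 35 bases after it. The first of 2 copies in NOP10 began 170 bases before. Of all tested genes with the motif, 35.7% had the first copy within 50 bases of the start. The windows below hold the motif in capitals and lie at chr12:101280083-101280112 (plus strand, UTP20), chr17:4555340-4555369 (minus strand, MYBBP1A), chr2:68157885-68157914 (plus strand, PNO1), chr19:39846356-39846385 (minus strand, FBL) and chr4:2963374-2963403 (minus strand, NOP14). They were chosen to show the same motif at genes with large and with small differences under PB.
UTP20: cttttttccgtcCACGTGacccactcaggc
MYBBP1A: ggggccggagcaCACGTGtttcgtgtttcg
PNO1: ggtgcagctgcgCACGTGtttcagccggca
FBL: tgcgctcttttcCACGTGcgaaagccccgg
NOP14: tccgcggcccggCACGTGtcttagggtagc

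Genes of ribosome biogenesis were lower in the PB group at nearly every step. Of the 42 members, all of which were tested, 39 passed the test as lower (edgeR quasi-likelihood test, Benjamini-Hochberg adjusted p of at most 0.05 over 24200 genes), while 26.1% of all tested genes passed as lower. As higher, 0 members passed in this edgeR fit, 0 had an unadjusted p under 0.05 in that direction and 0 passed with DESeq2. Of all tested genes 24.1% passed as higher in this fit. RRN3 passed as higher with limma, and 3 members did so in edgeR with library size alone. In the main edgeR fit RRN3, NOP10 and PPAN did not pass in either direction. The median log2 fold change of the members was -0.55, which is 68.5% of the control level, beside a median of 0.011 over all tested genes. Among the 13533 genes with a mean of at least 1 FPKM, a background closer to the members in level, 36.1% passed as lower in a fit to those genes alone. In that edgeR fit 39 members passed as lower and RRN3 passed as higher (0.11, adjusted p = 0.0148). In these bulk samples, fewer cells of a type and less RNA per cell cannot be told apart.

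The decrease was moderate in size. NOP16, BOP1 and MYBBP1A were the 3 members that fell past a log2 fold change of -1, a line that 6.73% of all tested genes passed, and 0 members passed 1 in the upward direction, beside 5.36% of all tested genes. With scaling by library size alone, NOP16 at -1.15 stayed past the line and BOP1 at -0.99 and MYBBP1A at -0.89 did not. The members together took 0.770% to 0.772% of all counts in the control samples and 0.580% to 0.591% in the PB samples. This share is scaled by library size alone. In FPKM, every PB sample lay below every control sample for 35 members, beside 21.6% of all tested genes. Every PB sample lay above every control sample for RRN3 and PPAN, beside 34.1% of all tested genes. The groups overlapped for UBTF, NOP10, NOP14, RRP12 and NOC4L. The normalization of edgeR (trimmed mean of M values, TMM) gave the PB libraries larger factors, so that a gene with equal FPKM in both groups had a log2 fold change of -0.13. With library size alone the median over all tested genes was 0.14, and the share of lower genes among all calls went from 52.0% to 38.9%. Among the members 37 passed as lower and 3 as higher, beside 4879 and 7679 of all 24200 tested genes.

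**Figure D1:**
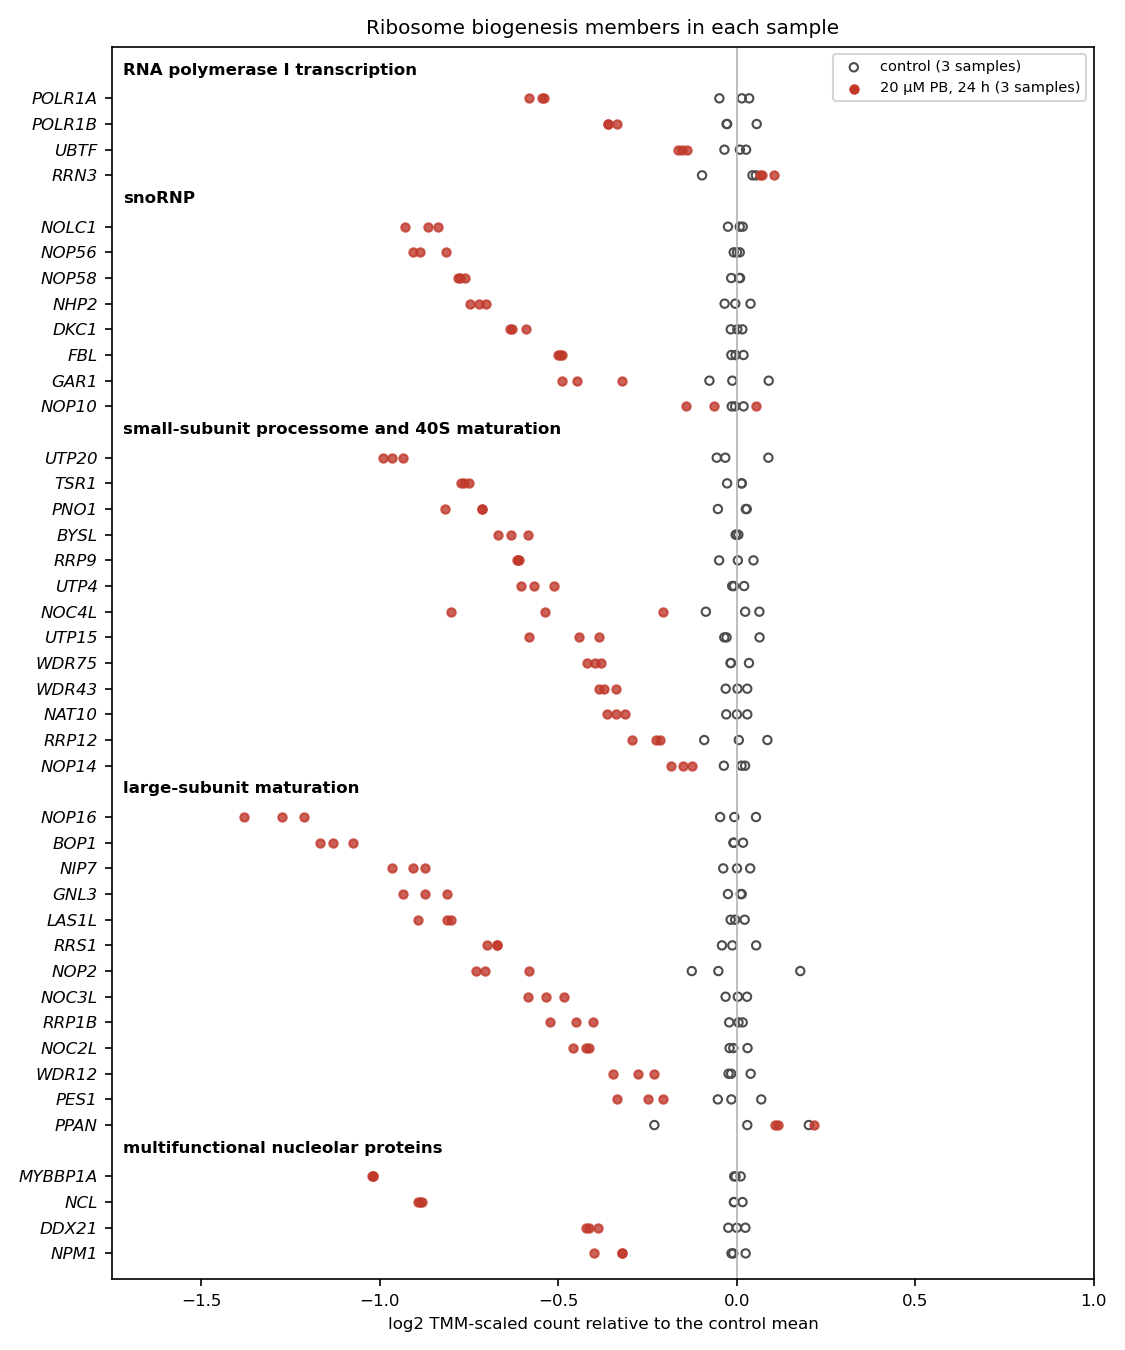
Level of each of the 42 members in each sample, as the log2 TMM-scaled count relative to the mean of the 3 control samples, grouped by step and ordered within each step by the difference. Open circles are control samples and filled circles are samples given 20 μM PB for 24 h, and the filled circles lie left of the open ones for nearly all members, with RRN3, NOP10 and PPAN the members that did not pass the test.

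RNA polymerase I transcription had the smallest median difference of the steps, at -0.25. Of its 4 members 3 fell, and with library size alone 2 fell and 1 rose. POLR1A (ENSG00000068654, chr2:86020216-86106155, minus strand, hg38), the catalytic subunit, was at 5.84, 6.18 and 6.23 FPKM in the control samples and at 4.59, 4.57 and 4.44 FPKM in the PB samples, with a log2 fold change of -0.56 (SE 0.036, adjusted p = 1.87e-53). All PB samples were below all control samples. POLR1B (ENSG00000125630, chr2:112541915-112579818, plus strand), the other large subunit of the enzyme core, was at 10.12, 10.25 and 10.79 FPKM and at 8.89, 9.04 and 8.84 FPKM, with a log2 fold change of -0.36 (SE 0.038, adjusted p = 1.07e-19). Its groups did not overlap either. The ratio of POLR1A to POLR1B in FPKM was 0.586 ± 0.015 (SD, n = 3) in the control group and 0.508 ± 0.0074 in the PB group, without overlap.

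The 2 factors that bring the polymerase to the ribosomal DNA stayed near their control levels. UBTF (ENSG00000108312, chr17:44205033-44221626, minus strand), which coats the active ribosomal genes, was at 20.06, 19.50 and 19.95 FPKM in the control samples and at 19.43, 19.59 and 19.70 FPKM in the PB samples. These ranges overlapped, and UBTF passed as lower with TMM at -0.15 (SE 0.033, adjusted p = 8.69e-06) but not with library size alone, where it was at -0.020 (adjusted p = 0.643). RRN3 (ENSG00000085721, chr16:15060033-15094311, minus strand), the factor that makes the polymerase competent to start, was at 16.97, 15.60 and 17.20 FPKM in the control samples and at 19.04, 19.57 and 19.04 FPKM in the PB samples. Every PB sample was above every control sample in FPKM, while the TMM-based log2 fold change was 0.076 (95% interval -0.0039 to 0.16, adjusted p = 0.112). With library size alone it was 0.21 (adjusted p = 6.63e-07). RRN3 overlaps PDXDC1 on the opposite strand, which had 83.0% as many counts, and its 4 pseudogenes had 5.29%.

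The snoRNP proteins were lower, with a median of -0.67 and 7 of 8 passing. NOLC1 (ENSG00000166197, chr10:102152176-102163871, plus strand), a chaperone that carries snoRNPs to the nucleolus, was at 78.26, 78.89 and 76.56 FPKM in the control samples and at 47.00, 44.94 and 47.67 FPKM in the PB samples. Its log2 fold change of -0.87 (SE 0.028, adjusted p = 1.08e-216) was the lowest of the step, and its groups were far apart relative to their spread. The core proteins of the C/D class, which guides methylation, fell by different amounts. NOP56 went from 48.6 ± 0.54 to 29.2 ± 0.92 FPKM (SD, n = 3 per group, log2 fold change -0.87) and NOP58 from 48.2 ± 0.20 to 30.9 ± 0.25 FPKM (-0.77). FBL, the methyltransferase itself and the most abundant of the class, went from 223.1 ± 2.6 to 173.6 ± 0.31 FPKM (-0.49).

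The H/ACA class, which guides pseudouridylation, had 3 proteins that fell and 1 that did not pass. The pseudouridine synthase DKC1 went from 19.7 ± 0.31 to 14.1 ± 0.26 FPKM (log2 fold change -0.62), NHP2 from 64.4 ± 1.9 to 42.8 ± 0.57 FPKM (-0.72) and GAR1 from 24.2 ± 1.2 to 19.8 ± 1.2 FPKM (-0.41). NOP10 (ENSG00000182117, chr15:34339159-34343180, minus strand), their small partner, was at 61.49, 63.78 and 62.31 FPKM in the control samples and at 62.23, 65.71 and 70.92 FPKM in the PB samples. Its groups overlapped, and its log2 fold change of -0.045 (SE 0.036, 95% interval -0.12 to 0.026, adjusted p = 0.316) turned to 0.088 with library size alone (adjusted p = 0.0272). Without PB replicate 3, the highest sample, NOP10 was at -0.10 (adjusted p = 0.0246). The ratio of NHP2 to NOP10, which depends on no normalization between samples, was 1.03 ± 0.019 in the control group and 0.647 ± 0.040 in the PB group. RMND5B overlaps NHP2 on the opposite strand with 50.6% as many counts and was at 0.052. The ratio of DKC1 to NOP10 was 0.315 ± 0.0031 and 0.213 ± 0.018, and that of GAR1 to NOP10 was 0.387 ± 0.027 and 0.299 ± 0.0041. None of these 3 ratios overlapped between groups, so that within the H/ACA proteins NOP10 RNA made up more of the total in every PB sample. The 3 ratios share NOP10 and are not independent. Each had an exact permutation p of 0.1, the smallest that 3 against 3 samples allow.

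**Figure D2:**
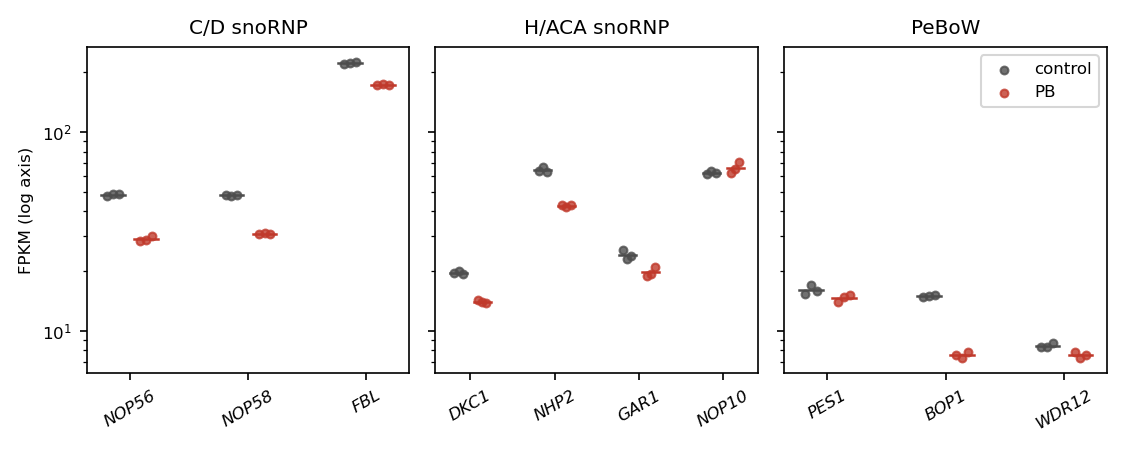
FPKM (log axis) in each control and PB sample of the proteins of the C/D snoRNP, the H/ACA snoRNP and the PES1, BOP1 and WDR12 complex (PeBoW). Points are samples and short lines are group means. NOP10 stays near 62.5 and 66.3 FPKM while its partners are lower in the PB group, and BOP1 goes from 15.1 to 7.58 FPKM while PES1 and WDR12 move little.

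All 13 members of the small-subunit processome and of small-subunit maturation fell with TMM, with a median of -0.48, and 12 of 13 did so with library size alone. UTP20 (ENSG00000120800, chr12:101280105-101386618, plus strand), a large scaffold of the processome, was at 8.08, 8.06 and 8.84 FPKM in the control samples and at 4.78, 4.59 and 4.66 FPKM in the PB samples, with a log2 fold change of -0.97 (SE 0.044, adjusted p = 3.73e-108). Its PB samples were close to each other and far below every control sample. The late maturation factors TSR1 and PNO1 followed at -0.76 and -0.75, and BYSL at -0.63. RRP9, a protein of the U3 snoRNP, was at -0.61. The subcomplex that joins the nascent precursor was lower by smaller amounts, with UTP4 at -0.56, UTP15 at -0.48, WDR75 at -0.40 and WDR43 at -0.36, as was the RNA acetyltransferase NAT10 at -0.34. UTP4 shares its span with SNTB2, which had 128% as many counts.

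At the other end of the step, NOP14 (ENSG00000087269, chr4:2937933-2963406, minus strand), a scaffold of the same particle, was at 30.73, 30.10 and 31.14 FPKM in the control samples and at 30.85, 29.60 and 30.19 FPKM in the PB samples. The groups overlapped, and the log2 fold change of -0.15 (SE 0.035, adjusted p = 3.57e-05) became -0.022 with library size alone (adjusted p = 0.633). An antisense gene, NOP14-AS1, overlaps it, had 17.8% as many counts and was at a log2 fold change of 0.82. RRP12, an export factor, was at -0.26 and NOC4L, which binds NOP14, was at -0.48, both with overlapping FPKM, and neither passed with limma on log2(FPKM + 0.1) (adjusted p = 0.185 and 0.0714). NOC4L had the widest relative spread of any member in the PB group, from 3.63 to 5.46 FPKM.

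Large-subunit maturation held the 2 largest decreases, with a median of -0.68 and 12 of 13 members passing as lower. NOP16 (ENSG00000048162, chr5:176383946-176388927, minus strand), a nucleolar protein of the large-subunit precursor, was at 18.31, 17.31 and 17.67 FPKM in the control samples and at 7.49, 8.41 and 8.03 FPKM in the PB samples. Its log2 fold change of -1.29 (SE 0.058, adjusted p = 4.57e-109) was the lowest of the 42 members and corresponds to 41.0% of the control level. Its PB samples all lay below its control samples. HIGD2A overlaps NOP16 on the opposite strand with 92.8% as many counts and was at -0.085.

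BOP1 (ENSG00000261236, chr8:144262045-144291438, minus strand) works with PES1 and WDR12 in the PeBoW complex, which is needed to process the large-subunit RNAs. BOP1 was at 14.87, 15.06 and 15.24 FPKM in the control samples and at 7.56, 7.35 and 7.82 FPKM in the PB samples, with a log2 fold change of -1.12 (SE 0.052, adjusted p = 1.47e-100). PES1 was at -0.26, which did not pass with limma on log2(FPKM + 0.1) (adjusted p = 0.0680), and WDR12 at -0.29. Genes on the opposite strand overlap both. NBEAL1 had 112% as many counts as WDR12 and was at 0.14, and CARF had 12.9% and was at 0.99. TCN2 had 11.7% as many counts as PES1 and was at 0.40. How far such reads enter the ratios below was not determined. The ratio of BOP1 to PES1 was 0.936 ± 0.044 in the control group and 0.515 ± 0.022 in the PB group, and that of BOP1 to WDR12 was 1.78 ± 0.023 and 0.998 ± 0.036. In contrast, the ratio of PES1 to WDR12 was 1.91 ± 0.11 and 1.94 ± 0.14, with overlapping samples (exact permutation test, two-sided, p = 0.9). Each of the other 10 of the 11 ratios compared within complexes had an exact permutation p of 0.1 (adjusted 0.11), the smallest that 3 against 3 samples allow, so none could pass the threshold.

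LAS1L (ENSG00000001497, chrX:65438549-65534810, minus strand), the endonuclease that cuts the spacer in front of the large-subunit RNA, was at 10.61, 10.66 and 10.88 FPKM in the control samples and at 6.34, 6.76 and 6.67 FPKM in the PB samples. Its log2 fold change was -0.84 (SE 0.036, adjusted p = 4.52e-119), with no overlap. NIP7 at -0.91 and the nucleolar GTPase GNL3 at -0.87 fell by a like amount. The RNA methyltransferase NOP2 was at -0.69 and RRS1, which helps to place the small ribosomal RNA of the large subunit, at -0.68. NOC3L at -0.54, RRP1B at -0.46 and NOC2L at -0.43 fell less. PPAN (ENSG00000130810, chr19:10106362-10112012, plus strand) was the exception at 3.40, 4.12 and 4.61 FPKM in the control samples and 4.75, 4.77 and 5.10 FPKM in the PB samples. Its log2 fold change of 0.12 (SE 0.093, 95% interval -0.059 to 0.31) did not pass (adjusted p = 0.283), although it did with library size alone (0.26, adjusted p = 0.0131). P2RY11 overlaps PPAN on the same strand with 36.7% as many counts and was at 0.56, so that its reads and those of PPAN may not be separable.

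All 4 multifunctional nucleolar proteins fell, with a median of -0.65. MYBBP1A (ENSG00000132382, chr17:4538897-4555386, minus strand), which binds RNA polymerase I and also transcription factors, was at 7.65, 7.86 and 7.73 FPKM in the control samples. It was at 4.19, 4.18 and 4.18 FPKM in the PB samples, with a log2 fold change of -1.02 (SE 0.057, adjusted p = 6.55e-70). Nucleolin (NCL), an abundant RNA-binding protein of the nucleolus, went from 123.9 ± 0.64 to 73.5 ± 0.33 FPKM at a log2 fold change of -0.89, and the log10 of its adjusted p was -375. The helicase DDX21 was at -0.41. NPM1 (nucleophosmin, ENSG00000181163, chr5:171387116-171411810, plus strand), a ribosome chaperone and the most abundant of the 42 members, was at 261.8, 258.2 and 257.3 FPKM in the control samples and at 215.9, 227.8 and 226.9 FPKM in the PB samples. It fell least of the 4, at -0.35 (SE 0.019, adjusted p = 4.44e-75), without overlap. The 49 pseudogenes of NPM1 held 3.50% as many counts as the gene, and the 2 of NOC2L held 10.8%.

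The coefficient of variation of FPKM over the 3 samples had a median of 1.87% over members in the control group and 2.96% in the PB group, and was highest for PPAN among the controls (15.1%) and for NOC4L under PB (20.5%). Of the 42 members, 11 overlap another gene that had at least 10% as many counts, in 10 of them on the opposite strand, and 9 of these 11 passed as lower. Overlap was taken over whole gene spans, not over shared exons. The strand setting of the counting was not given in the sources used here, so how far such pairs share reads was not determined.

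Genes of the same steps outside the 42 members were lower too. Their median was smaller in size, but for RNA polymerase I it was near that of the members (-0.23 and -0.25). Members and lists were chosen with earlier results of these data known, and whether that choice bears on the difference was not tested. Over 4 further lists with 115 tested genes, 91 passed as lower and 7 as higher, with a median of -0.37. Of all tested genes, 26.1% passed as lower and 24.1% as higher. With library size alone the counts were 73 and 13, beside 4879 and 7679 of all 24200 tested genes. Of the 12 other snoRNP assembly factors, all 12 fell, from RUVBL2 at -1.15, an ATPase of the assembly complex, to ZNHIT3 at -0.16, and 9 did so with library size alone. Of the 44 other small-subunit factors 37 fell and 1 rose, with RRP7A at -0.95 and the nuclease NOB1 at 0.52 as the extremes. The 48 other large-subunit factors held 36 that fell and 3 that rose, or 28 and 7 with library size alone. EBNA1BP2 was the lowest of them, going from 70.0 ± 1.4 to 26.9 ± 1.4 FPKM (log2 fold change -1.51), and RSL24D1, a protein of the large-subunit precursor, was the highest at 0.65, from 27.6 ± 0.83 to 47.6 ± 0.53 FPKM. The 11 other subunits and factors of RNA polymerase I held 6 that fell and 3 that rose, with a median of -0.23. The share that rose was near that of all tested genes. POLR1G, a subunit specific to this polymerase, fell to -1.04, whereas POLR1D, a subunit shared with RNA polymerase III, rose to 0.26.

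The exosome, which trims ribosomal RNA precursors, had 11 of 14 genes that fell and 3 that rose, with a median of -0.37, from EXOSC4 at -0.89 to EXOSC6 at 0.30. Of all tested genes 26.1% passed as lower and 24.1% as higher, so the share of exosome genes that rose was near the background. RNA polymerase III and its factors, which make the small ribosomal RNA of the large subunit and the transfer RNAs, had 12 of 22 genes that fell and 3 that rose with TMM and a median of -0.11. With library size alone 8 fell and 7 rose, and the median was 0.022, so the direction of this list depends on the scaling. At that scaling 4879 of all 24200 tested genes passed as lower and 7679 as higher. POLR3K at -1.25 and POLR3GL at 0.31 were its extremes.

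**Figure D3:**
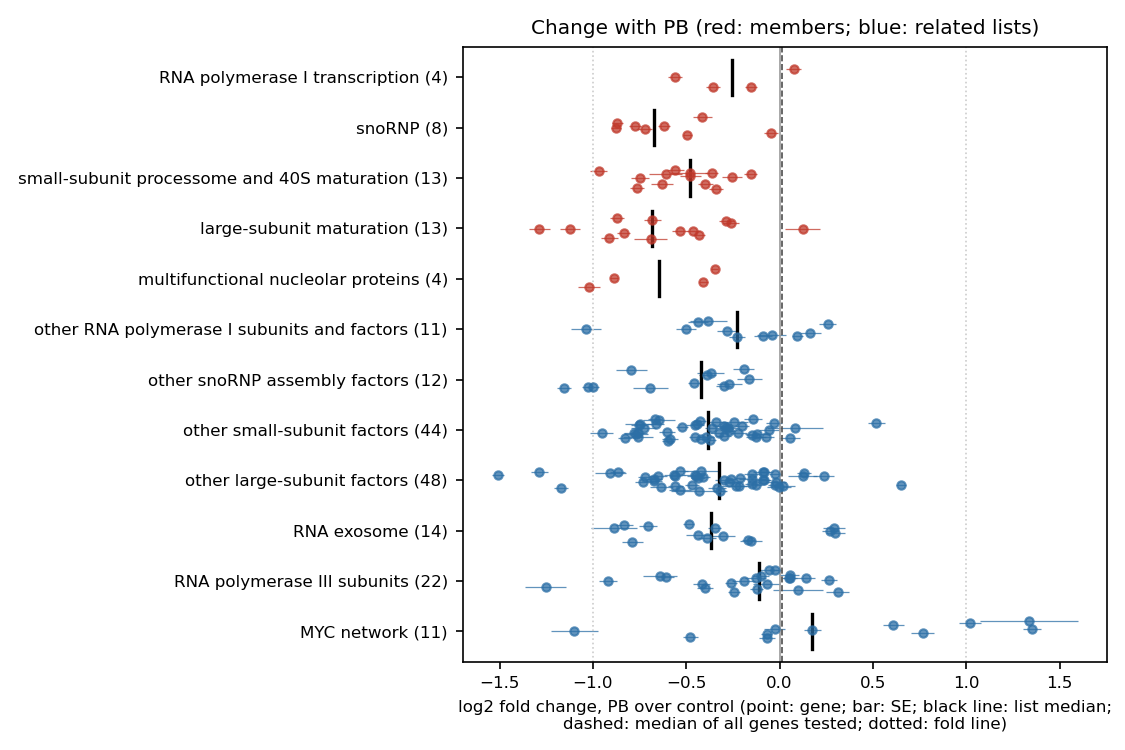
Log2 fold change of PB over control with its SE for each tested gene, by step for the 42 members (red) and for related lists (blue), with the number of genes in parentheses. Black lines are list medians, from -0.68 for large-subunit maturation to 0.17 for the MYC network, the dashed line is the median of all tested genes at 0.011, and dotted lines mark -1 and 1.

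MYC itself, whose E-box partner is MAX, was at 22.42, 21.70 and 22.20 FPKM in the control samples and at 16.78, 17.93 and 17.52 FPKM in the PB samples. Its log2 fold change was -0.48 (SE 0.038, adjusted p = 1.91e-35), and it was -0.34 with library size alone. All PB samples were below all control samples. The genes for repressors that compete with MYC for MAX were mostly higher. MXD1 was at 4.53, 4.37 and 4.33 FPKM in the control samples and at 11.68, 12.65 and 12.64 FPKM in the PB samples, a log2 fold change of 1.35 (SE 0.049, adjusted p = 2.13e-163). On the log2 scale MXD4 rose by 1.02, MNT by 0.77 and MXI1 by 0.61, and MAX by 0.17. MXD3 fell to -1.10 from 2.07 ± 0.33 to 1.05 ± 0.15 FPKM, and MYCL rose by 1.34 at a low level, from 0.177 ± 0.040 to 0.483 ± 0.078 FPKM. Of the 12 listed genes 11 were tested, of which 3 passed as lower and 6 as higher, beside 26.1% and 24.1% of all tested genes, so that the share of lower genes was close to the background. With library size alone 2 passed as lower and 6 as higher, MGA being at -0.070 with TMM and at 0.063 with library size alone.

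**Figure D4:**
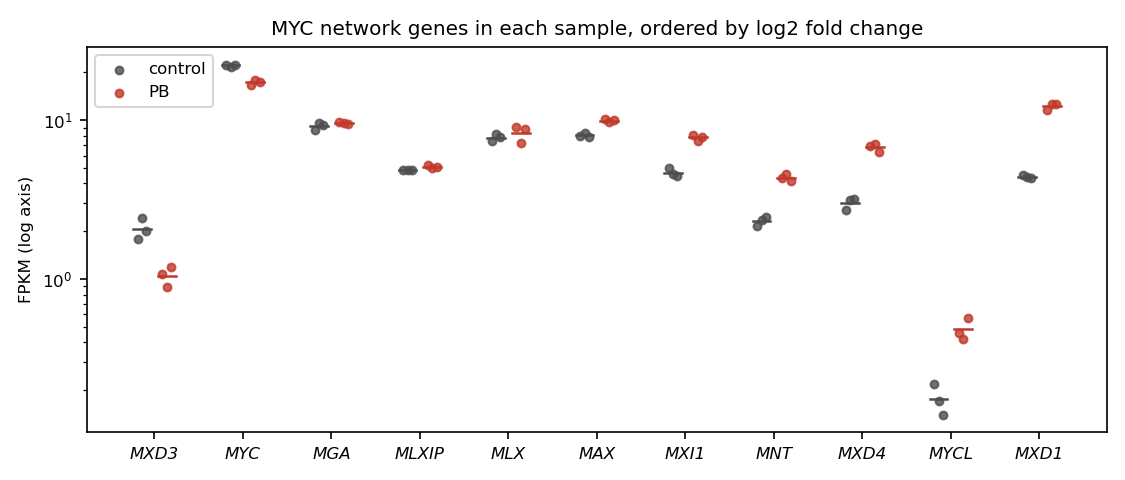
FPKM (log axis) of the 11 tested genes of the MYC network in each control and PB sample, ordered from the lowest to the highest log2 fold change. Points are samples and short lines are group means, with MYC lower in every PB sample (22.1 to 17.4 FPKM on average) and MXD1 higher in every PB sample (4.41 to 12.3 FPKM).

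The median log2 fold change was -0.55 for the 14 members with CACGTG in the promoter and -0.48 for those with an entry but without it. Within steps the order differed, and few genes had the motif. The medians were -0.27 and -0.67 for the snoRNP genes (2 of 6 with the motif) and -0.54 and -0.84 for the large-subunit genes (3 of 10). They were -0.58 and -0.48 for the small-subunit genes (8 of 12) and -1.02 and -0.41 for the multifunctional proteins (1 of 4). UTP20, MYBBP1A and PNO1, whose windows are printed above, fell to -0.97, -1.02 and -0.75, while FBL and NOP14 with the same motif were at -0.49 and -0.15. Over all tested genes the motif was present in 9.74% of those that passed as lower and in 9.71% of those that passed as higher, and its share was 27.3% of 99 promoters in the 4 further lists of the same steps.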

How the data were processed

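RNA-seq of poly(A) RNA from 3 control and 3 PB samples (20 μM, 24 h) was used, with groups taken from the labels and dose and time from the methods of the study. The authors deposited raw counts per gene and FPKM values. According to the submitters' processing notes, HTSeq 0.6.1, Cufflinks 2.2.1 and DESeq2 were used on build hg38, and the aligner, the annotation and the strand setting were not given in the sources used here. Dividing each count by exonic length and library total gave the deposited FPKM, to within rounding, for 100% of values in each sample. Total counts lay between 15681655 and 21986948.

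The counts of all 24200 genes with a mean of at least 0.1 FPKM were fitted with edgeR 4.0.16 in R 4.3.3 (TMM, quasi-likelihood test of PB against control, Benjamini-Hochberg over all genes tested), with library sizes over all genes. The study used DESeq2, which served as an alternative (DESeq2 1.42.0). Other alternatives were limma 3.58.1 on log2(FPKM + 0.1) and on log2(FPKM + 1), other filters, library size alone, RLE size factors, a replicate block and each sample left out. The fit was tested on simulated counts. List medians are descriptions without a test. SEs and 95% intervals are on the log2 scale. Those of edgeR, like its p-values, rest on a dispersion pooled over genes, so a gene's own spread between samples hardly enters them.

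The members and gene lists were chosen with earlier results of these data known. Values in every sample are given for the RNA polymerase I members, LAS1L, MYC, and per step the lowest and the highest member and any past a log2 fold change of 1 in size. For each further list the lowest and the highest gene are named. Other genes, the E-box search, the count of overlapping genes with its line of 10%, the pseudogene sums and the count of genes lost under PB were added after values had been seen. Promoter sequences are from RefSeq (GRCh38.p14).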

Additional observations from a re-analysis of the deposited data

How the results depend on the processing

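The count of lower members was 39 with edgeR, 37 with library size alone, 34 with limma at either pseudocount and 39 to 40 when a sample was left out. In all, 34 members kept their direction and their side of the threshold in every alternative, and 8 did not (RRN3, UBTF, NOP10, NOP14, RRP12, NOC4L, PES1 and PPAN). NOP10 turned to 0.088 with library size alone (adjusted p = 0.0272). The count of higher members went from 0 to 1 with a minimum of 1 FPKM, to 1 with limma at either pseudocount and to 3 with library size alone. The count below -1 went from 3 to 1 with limma at either pseudocount and with library size alone, to 2 with a minimum of 1 FPKM, and to 0 at a line of 2. With limma on log2(FPKM + 0.1), limma on log2(FPKM + 1) and library size alone in turn, the medians were -0.41, -0.37 and -0.41 for the members, -0.12, -0.11 and -0.12 for RNA polymerase I, -0.54, -0.52 and -0.54 for the snoRNPs, -0.37, -0.32 and -0.35 for the small subunit, -0.52, -0.40 and -0.55 for the large subunit, and -0.51, -0.51 and -0.52 for the multifunctional proteins, whose median was -0.62 with a minimum of 1 FPKM. The limma fits and library size alone do not apply the TMM factors, which moves a gene by 0.13. With each sample left out in turn, the median lay between -0.70 and -0.59 for the large subunit, between -0.59 and -0.47 for the small subunit and between -0.57 and -0.52 for the members. No pairing of the samples by replicate number was detected, the correlations of same-numbered deviations being -0.029, 0.043 and -0.029. With 3 samples per group these values cannot show that the samples were not handled in pairs. A fit with the replicate number as a block gave 39 lower members and a median of -0.55, and changed no call. The lowest count of any member in any sample was 115, in NOC4L, and NOC4L and PPAN had the widest relative spreads, 20.5% in the PB group and 15.1% in the control group.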
